A study of Mus musculus with 2 samples.

Results

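Among mouse natural killer (NK) cells sorted from CT26 tumours, 892 of 20821 cell barcodes (4.28%) carried transcripts of collagen-making cells and few NK transcripts. These cells were chosen by their own counts of unique molecular identifiers (UMIs, one per captured RNA molecule). A cell was a member when Col1a1, Col1a2, Sparc, Cald1, Pcolce and Lrp1 together made up at least 0.2% of its UMIs, here called the stroma share, and Gzma, Gzmb, Nkg7 and Tyrobp together under 0.8%, the NK share. They were described against 17859 reference NK cells, which had an Ncr1 UMI and a stroma share under 0.15%. The label given to the members was tumour or stroma cells, with the markers Col1a2, Cald1, Sparc, Saa3, Rhox5 and Dcn. Col1a2, Cald1 and Sparc belong to the rule and test nothing. Of the other markers, Rhox5 was widespread in the members while Saa3 and Dcn came from few cells. The cells are called members below, a name that takes no side between tumour and stroma.

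CT26 is a transplantable colon carcinoma line of BALB/c mice with an undifferentiated, spindle-like growth pattern, and tumours grown from it also hold host fibroblasts. Fibroblasts build the extracellular matrix: they secrete fibrillar collagens, which Pcolce helps to mature, and small leucine-rich proteoglycans such as decorin (Dcn), osteoglycin (Ogn) and osteomodulin (Omd). Rhox5 is an X-linked homeobox gene whose normal expression is mostly in the reproductive tract and placenta and which many mouse tumour lines express. A sort for CD45 (Ptprc) and NKp46 (Ncr1) is meant to leave tumour cells and fibroblasts behind.

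The study profiled sorted cells, gated for CD45.2 and NKp46 and against CD3, by single-cell RNA sequencing in microwells, after enzymatic digestion of tumours named CT26_b2m-/- in the labels. By the sample titles, 1 library came from mice given IL-15SA and 1 from mice given IL-15SA+IL-21Fc, called the combination library here. The series title names other cytokine combinations, and the sample titles were followed. Both libraries share the tumour line, its B2m genotype and the sort, cells of 1 treatment were pooled before loading, and no untreated group was analysed here. Each treatment is thus 1 library, so treatment, pool and library cannot be told apart, no test between treatments was possible, and all intervals below are 95% exact intervals that cover counting error only.

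The libraries held 8386 and 12435 barcodes with 30893388 and 35336180 UMIs. Members had 1297 to 20167 UMIs (median 3467) in the IL-15SA library and 1124 to 23450 (median 3097) in the combination library, against medians of 3193 and 2447 in the reference cells. The 2 libraries had 60 barcode sequences in common, 2 of which were members. Several genes that NK cells carry were listed at 0 in these files (Itgam, and Il2rg with 0 UMIs in both libraries), so a gene at 0 below means that no UMI was assigned to it.

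The stroma share had a median of 0.429% in the 180 IL-15SA members and 0.441% in the 712 combination members, and reached 1.42% and 1.51%. Their NK share had a median of 0.404% and 0.310%, where the reference cells had 3.26% and 2.96%. These values chose the cells and are given as a description. The share rests on few molecules: a member had a median of 18 and 15 UMIs of the 6 stroma genes, and as few as 3 in either library.

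**Figure D1:**
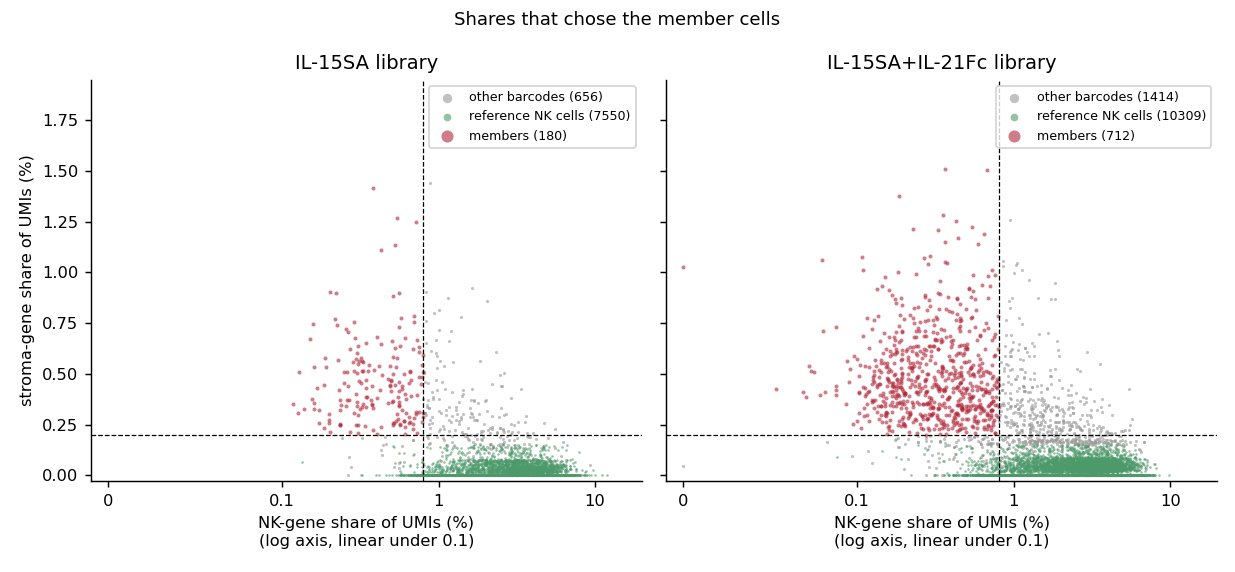
Each point is a cell barcode, with the share of its UMIs in the 4 NK genes on the x axis (percent, log scale above 0.1%) and in the 6 stroma genes on the y axis (percent), for the IL-15SA library (left) and the combination library (right). Dashed lines mark 0.2% and 0.8%. The 180 and 712 members fill the upper left corner, and the upper right corner holds 143 and 353 barcodes with both signatures.

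Cells on either side of the limits had similar Rhox5 levels. With a low NK share, the 18 IL-15SA cells just inside the stroma limit (0.2% to 0.25%) had Rhox5 at 557 CPM (UMIs of the gene per 1000000 UMIs of the pooled cells), and the 6 just outside it (0.15% to 0.2%) had 694 CPM on 12 UMIs. In the combination library the 49 cells inside had 619 CPM and the 51 outside had 500.0 CPM. At the NK limit, the 20 IL-15SA members with an NK share of 0.7% to 0.8% had Rhox5 at 403 CPM and the 22 cells just beyond (0.8% to 0.9%) had 383 CPM. In the combination library the values were 525 CPM in 45 cells and 554 CPM in 27 cells. No gap in Rhox5 marked either limit, and the cells near the NK limit were shallow, with medians of 1451 to 1959 UMIs.

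Rhox5 was the most widespread of the tumour genes outside the rule. The gene lies at chrX:37804842-37808876 (mm10, plus strand, protein-coding). It stood at 658 CPM (interval 606 to 712, 604 UMIs) in IL-15SA members and at 626 CPM (598 to 655, 1892 UMIs) in combination members. In the reference cells it was at 16.5 and 32.8 CPM, so members had 39.8 times (35.2 to 45.0) and 19.1 times (17.6 to 20.6) the reference level. The 2 libraries' member levels overlapped within counting error, and the lower ratio in the combination library came with a higher level in its reference cells. A Rhox5 UMI was present in 139 of 180 members (77.2%) and 528 of 712 (74.2%), against 5.42% and 7.58% of reference cells. After every cell was thinned to 1000 UMIs, a depth that no member or reference cell fell below, the shares were 43.9% and 43.8% in members and 1.99% and 3.33% in reference cells.

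Shallow members held a Rhox5 UMI less often, and their Rhox5 level was lower too. Among members under 2000 UMIs it was found in 51.1% and 48.1%, and among those over 5000 UMIs in 98.6% (72 of 73 cells) and 95.3% (202 of 212). The levels were 470.3 and 556 CPM under 2000 UMIs and 716 and 661 CPM over 5000 UMIs. Over both libraries, 336 of the 355 members with at least 4000 UMIs (94.6%, interval 91.8 to 96.8) had a Rhox5 UMI. Nearly all deep members thus held the transcript.

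Other genes of the tumour list are described next. Of 14 tumour genes found in the files, 6 reached the filter of 50 CPM in members or reference cells of both libraries, and all 6 were at least 2-fold higher in the members of both libraries. Over all 3569 genes that passed the filter, 682 (19.1%) were 2-fold higher and 516 (14.5%) 2-fold lower in both libraries. The rule used this contrast, and genes such as Lgals7, Hmga2 and Ereg passed the filter only through the members, so nothing is read from these counts. Lgals7, which encodes galectin-7, had 499.7 and 467 CPM in the members of the IL-15SA and the combination library, and 16.8 and 25.2 CPM in their reference cells. Hmga2, an oncofetal chromatin protein, had 194 and 215 CPM against 6.97 and 9.30 CPM. Ereg, the EGF-family ligand epiregulin, was at 163 and 106 CPM against 3.96 and 5.28 CPM. Of the list, 4 genes had no UMI in any member, among them Trap1a and Mest.

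CT26 is known for loss of the cell-cycle inhibitor gene Cdkn2a. Cdkn2a had no UMI in the IL-15SA members, which allows up to 3.27 CPM, and 3 UMIs in the combination members (0.992 CPM, interval 0.205 to 2.90). Reference cells had it at 11.2 and 7.30 CPM. Members were below the reference level in both libraries. Ccnd1, the cyclin that drives entry into the cell cycle, was at 883 and 857 CPM against 23.4 and 38.1 CPM, a difference of 37.8 times (34.0 to 41.9) and 22.5 times (20.98 to 24.2).

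The matrix genes outside the rule were high in members of both libraries. Fn1, the matrix glycoprotein fibronectin, reached 551 and 471 CPM against 8.69 and 19.9 CPM, so members had 63.4 (54.4 to 74.1) and 23.7 (21.5 to 26.1) times the reference level. Cyr61, a secreted matricellular protein, reached 1293 and 931 CPM against 33.8 and 38.4 CPM. Serpinh1, the collagen chaperone of the endoplasmic reticulum, was at 683 and 592 CPM against 16.7 and 27.7 CPM. Lama5, a laminin chain of basement membranes, was at 353 and 308 CPM against 7.07 and 11.5 CPM.

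By list, 5 of 5 collagens that passed the filter, 7 of 8 matrix glycoproteins and 8 of 8 matrix proteases and inhibitors were higher in members of both libraries by 2-fold or more, against 19.1% of all genes. Nothing is read from these counts: Col1a1, Col1a2 and Sparc among them belong to the rule, and low NK levels mean that most passed the filter only through the members. The medians of these lists were between 4.99 and 5.27 on the log2 scale in the IL-15SA library and between 4.14 and 4.41 in the combination library, where all genes tested had medians of 0.16 and 0.24. They rest on the same genes, those of the rule included, and are a description only. Spp1 (osteopontin) was the exception among the glycoproteins, at 2835 and 2571 CPM in members and 2479.6 and 1605 CPM in reference cells. Most of each list lay under the filter: 14 of 19 collagens, 14 of 22 glycoproteins and 10 of 18 proteases and inhibitors. Col3a1, the collagen that accompanies type I in most fibroblasts, was at 51.2 and 26.5 CPM. Col5a2, Col11a1, Col12a1 and Col27a1 were among 5 collagens with no UMI in members.

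The 20 genes outside the rule with the highest smaller-of-both-libraries ratio over the reference were led by Dcn, Ogn and Omd. The others held matrix and membrane genes (Lama5, Fn1, Cyr61, Cavin3, Cav2, Cttn, Vldlr), complement genes (C1s1, C3), Ccnd1, and the mesenchymal transcription factor Osr1 at 98.0 and 99.2 CPM against 2.17 and 3.55 CPM. Clca3a1, Prkg2, Rarres2, Sema3a, Dpysl3 and Steap1 were also among the 20. Vim, the intermediate filament protein of mesenchymal cells, was at 3436 and 2925 CPM against 315 and 399 CPM. Prrx1, a mesenchymal homeobox factor, was at 242 and 186 CPM against 5.25 and 8.35 CPM. The 20 were picked for a high ratio in both libraries, so that trait was fixed by the choice. Dcn among them rests on few cells, as described below. The ratio of most of the genes named here was lower in the combination library.

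**Figure D2:**
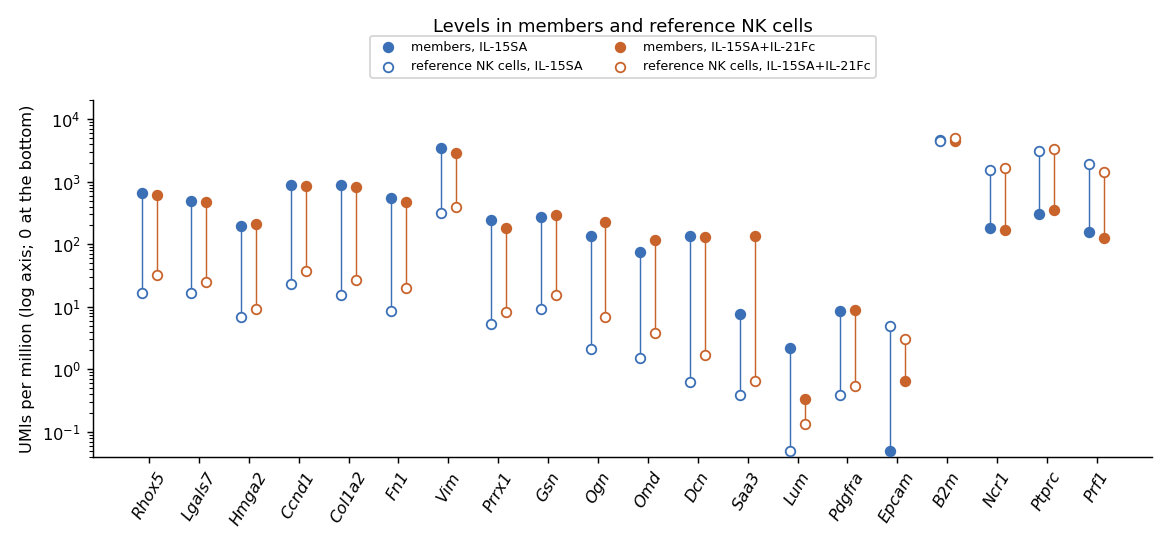
Levels of 20 genes in CPM (log axis, values of 0 drawn at the bottom) in members (filled) and reference NK cells (open), 1 library per colour and joined by a line. Rhox5 and Col1a2 sit between 626 and 880 in members and under 40 in reference cells, Lum and Epcam are under 3 in members, and B2m sits between 4446 and 5079 in all groups.

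The fibroblast genes did not rise as a block of cells. Dcn was at 137 CPM (126 UMIs) and 131 CPM (395 UMIs) in members, yet only 7 of 180 and 17 of 712 members had a Dcn UMI, and 5 cells held 98.4% and 92.1% of its UMIs. In the IL-15SA library 3 cells had 61, 32 and 25 Dcn UMIs. In the combination library 1 cell of 15030 UMIs had 307 of the 395, and without it Dcn stood at 29.2 CPM. That same cell held 391 of the 408 Saa3 UMIs, 146 of the 153 Cxcl5 UMIs, 292 of the 737 Cxcl1 UMIs, 95 Lcn2 UMIs and 9 Rhox5 UMIs. Saa3, an acute-phase protein, was found in 1 IL-15SA member with 7 UMIs and in 5 combination members, and without the richest cell of each library it was at 0 and 5.65 CPM. A Dcn UMI came with a Rhox5 UMI in 7 of 7 and 11 of 17 cells.

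Other genes that define fibroblasts were near 0. Lum, the proteoglycan lumican, had 2 UMIs in IL-15SA and 1 in combination members. Pdgfra, the receptor by which fibroblasts are usually sorted, was at 8.71 and 8.93 CPM. Fbln1, Fap and Postn had no UMI in any member, and Dpt, Col6a3, Mfap5 and Pi16 were under 2 CPM. Of 18 fibroblast genes, 11 did not pass the filter, 6 were at least 2-fold higher in members of both libraries and Thy1, which NK cells also carry, was lower, at 121 and 82.7 CPM against 1031 and 771 CPM. The 6 were Dcn, Ogn, Omd, Gsn, Pdpn and Prrx1. Over all genes that passed the filter, 19.1% were 2-fold higher and 14.5% 2-fold lower in both libraries. Ogn, Omd and Prrx1 passed the filter only through the members, so nothing is read from these counts.

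**Figure D3:**
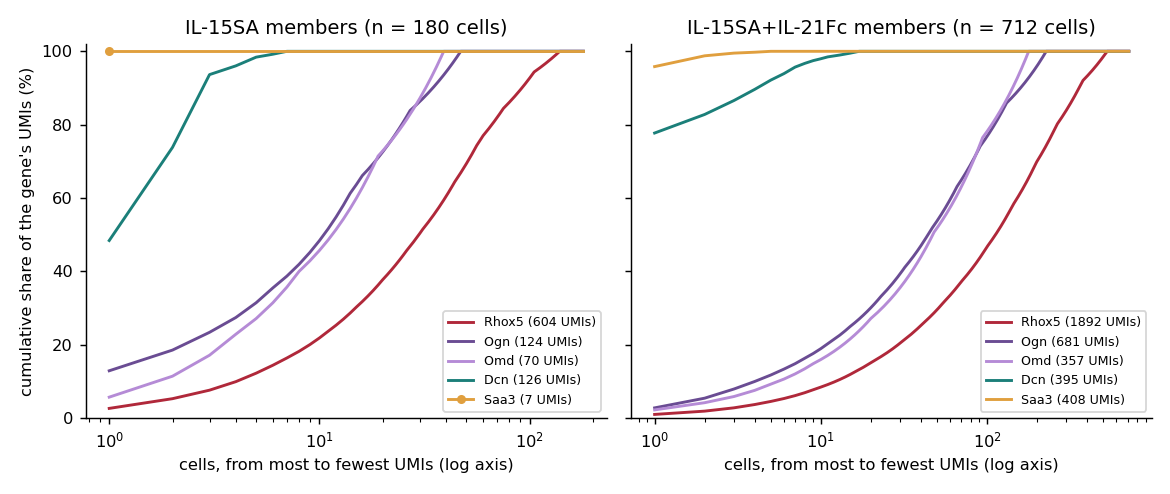
Cumulative share of each gene's UMIs (percent) over members ranked from most to fewest UMIs of that gene (log axis). Dcn passes 90% within 5 cells in both libraries and Saa3 lies almost wholly in 1 cell, while the UMIs of Ogn, Omd and Rhox5 are spread over 39 to 139 IL-15SA and 178 to 528 combination members.

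Ogn and Omd were spread over many members. Ogn was at 135 CPM (interval 112 to 161) in 47 of 180 IL-15SA members and at 225 CPM (209 to 243) in 227 of 712 combination members, against 2.14 and 6.76 CPM in the reference cells. Omd was at 76.2 CPM (59.4 to 96.3) in 39 members and at 118 CPM (106 to 131) in 178 members, against 1.54 and 3.75 CPM. In cells thinned to 1000 UMIs, 8.89% (5.17 to 14.0) and 16.1% (13.5 to 19.1) of members had an Ogn UMI, against 0.212% and 0.834% of reference cells. Omd and Ogn are neighbours on chromosome 13 (chr13:49582462-49592822 and chr13:49608046-49624501, mm10, plus strand), beside the related proteoglycan gene Aspn (chr13:49544443-49567565).

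Rhox5 and the fibroblast genes Dcn, Ogn and Omd did not split the members into separate groups. In the IL-15SA library 86 of 180 members (47.8%, interval 40.3 to 55.3) had Rhox5 only, 12 (6.67%, 3.49 to 11.4) had Dcn, Ogn or Omd only, 53 (29.4%) had both and 29 (16.1%) neither. In the combination library the counts were 279 (39.2%, 35.6 to 42.9), 59 (8.29%, 6.37 to 10.6), 249 (35.0%) and 125 (17.6%) of 712. Members with both had medians of 5525 and 4287 UMIs, those with Dcn, Ogn or Omd only had 2344 and 1743, and those with neither had 1591 and 1654. Class and depth went together, so the class of a shallow cell is uncertain. Among cells with Ogn or Omd, 80.6% and 81.7% had Rhox5, against 75.4% and 68.6% of cells without them. Of the 128 Ogn-positive cells with at least 4000 UMIs, 123 had Rhox5 (96.1%).

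Summed over both libraries, the 8 genes farthest apart in each direction between the cells with Rhox5 only and those with Dcn, Ogn or Omd only were named, and no list was counted. Pimreg, a mitotic gene, was at 92.96 against 5.67 CPM, and the kinetochore genes Spc24 and Spc25 were at 169.8 and 168 against 11.3 CPM each, levels that stand for few UMIs in the second class. Apod, a lipocalin, was at 8.35 CPM in cells with Rhox5 only and 199 CPM in the others, Aspn at 2.78 and 108 CPM, and Islr at 4.45 and 90.8 CPM. The second group was 71 cells in all, where all 10 Serpinb2 UMIs of the combination members lay in 1 cell, as did 10 of their 11 Il33 UMIs. Depth differed between these classes, as given above, and its part in these differences was not tested.

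To take depth out, members with at least 3000 UMIs were thinned to 3000 UMIs each, a comparison chosen after the data had been seen. Of the IL-15SA cells kept, 19 had at least 2 Ogn and Omd UMIs and 67 had none, and of 368 combination cells 95 had at least 2 and 210 had none. Rhox5 was found in 78.9% and 80% of the cells with these UMIs and in 82.1% and 81.4% of those without, at 597 and 589 CPM against 632 and 630 CPM. The cells that expressed Ogn and Omd held the tumour gene at a similar rate to the rest. Before thinning they were the shallower class, with medians of 5525 and 4018 against 7366 and 6458 UMIs.

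Several G2 and M phase genes stood lower in the Ogn- and Omd-positive cells. Of 1753 genes at 100 CPM or more, 34 (1.94%) were higher and 53 (3.02%) lower by 2-fold or more in both libraries. Of the 9 genes of the G2 and M phase list that passed this filter, 8 were lower in both. In the combination library all 8 passed it only through the cells without Ogn and Omd UMIs, so nothing is read from this count. Ccnb2, a mitotic cyclin, was at 87.7 against 547 CPM in the IL-15SA library and 94.7 against 652 CPM in the combination library. Ube2c, which the anaphase-promoting complex uses, was at 175 against 582 CPM and 84.2 against 497 CPM. Mki67 was found in 10.5% against 26.9% and in 2.11% against 19.0% of these cells. Top2a did not follow in the IL-15SA library (298 against 274 CPM) but did in the combination library (28.1 against 317 CPM). Of 8 S phase genes tested 1 was lower in both libraries, and here the libraries differed. In the combination library Mcm2, a subunit of the replicative helicase, was at 270.2 against 629 CPM, and Rrm2, which makes deoxynucleotides, at 70.2 against 297 CPM. In the IL-15SA library they were at 544 against 512 CPM and at 210.5 against 174 CPM. The difference between the libraries was not tested.

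The higher genes were of mixed kinds, with Mustn1, Ifit3 and Cdk14 among the 15 highest. Spon2, a secreted matrix protein, had 16 UMIs against 0 in the IL-15SA library and stood at 316 against 6.35 CPM in the combination library. The neighbouring Aspn had 7 UMIs against 0, and 228 against 6.35 CPM. The acute phase and complement list had 2 of 3 tested genes higher: C3 was at 351 against 64.7 CPM and 284 against 41.3 CPM, and C1ra, a protease of the first complement component, at 333 against 69.7 CPM and 414 against 87.3 CPM. Both passed the filter only through the cells with Ogn and Omd UMIs, so nothing is read from that count. Ccl7, a chemokine for monocytes, was at 895 against 328 CPM and 1126 against 298 CPM. Of 11 NF-kB and stress genes tested 1 passed 2-fold higher in both libraries, Fos, a subunit of AP-1, at 1333 against 642 CPM and 1512 against 554 CPM. Dcn went the other way, at 35.1 against 174 CPM and 24.6 against 113 CPM, in the few cells named above. Of the 99 genes past 2-fold higher in the IL-15SA library, 77 had the same sign and 34 passed 2-fold in the combination library, and of 181 lower genes 146 and 53 did.

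Defining markers of several other cell types that a tumour digest could hold were at or near 0 in the members. Of 11 endothelial genes 8 had no UMI (Cdh5, Kdr, Tie1 and Tek among them), and the summed list was at 20.7 and 9.92 CPM, most of it Pecam1, which leukocytes share. Of 10 neutrophil genes 9 had none, and the list summed to 0 and 0.331 CPM. Of 15 macrophage and monocyte genes, C1qa, Csf1r and Adgre1 had none (Itgam, at 0 in the reference cells too, says nothing here), and the summed 357 and 348 CPM came from Cd14 (162 and 143 CPM against 12.6 and 13.1 CPM in reference cells) and from Ly6c2 and Ccr2, which were lower than in the reference. Of 10 pericyte and smooth muscle genes 4 had no UMI (Rgs5, Notch3, Mcam and Abcc9) and 1, the muscle gene Mustn1, passed the filter, at 2-fold or more above the reference in both libraries. That list summed to 72.95 and 89.95 CPM against 10.65 and 17.01 CPM. None of 14 epithelial genes passed the filter, but the list summed to 93.6 and 105 CPM in members against 27.0 and 30.5 CPM in reference cells. Most of it was Krt18 (37.0 and 46.0 CPM) and Krt20 (49.0 and 49.3 CPM), while Epcam had 0 and 2 UMIs and Cdh1 was at 0 and 0.331 CPM.

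NK and leukocyte transcripts were present in the members at a low and even share of the reference level, gene by gene. Of 16 NK genes that passed the filter, 16 were at least 2-fold lower in members of both libraries, where 14.5% of all genes were. Their median was 11.9% of the reference level in the IL-15SA library (range 6.55% to 17.5%) and 10.9% in the combination library (8.97% to 16.2%). Of 10 pan-leukocyte genes, 10 were lower, with medians of 10.8% and 10.6%. The rule capped 4 NK genes, so the low level is a choice and nothing is read from these counts. Those 4 genes had medians of 11.25% and 9.67% of the reference level. The range was narrow over genes with different functions, from the perforin gene Prf1 to the receptor genes Klrd1 and Klrg1. Genes expressed together with the capped 4 can follow them, so this range is a description too. Arhgdib and Cytip were the 2 pan-leukocyte genes over 20% in both libraries.

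The sort's own markers followed the same scale. Ptprc stood at 305 and 354 CPM in members and at 3073 and 3317 CPM in reference cells, ratios of 0.0992 (0.0879 to 0.112) and 0.107 (0.1003 to 0.113). Ncr1 had 185 and 169 CPM in members and 1521 and 1641 CPM in the reference, where an Ncr1 UMI was required. In thinned cells, a Ptprc UMI was in 31.1% and 30.1% of members against 93.6% and 94.2% of reference cells, and an Ncr1 UMI in 21.1% and 16.4% against 77.9% and 81.0%. Without thinning, 57.8% and 44.5% of members had an Ncr1 UMI. The gated-out CD3 genes were low: Cd3e had no UMI in members and Cd3g was at 15.2 and 13.6 CPM against 107 and 120 CPM.

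Per UMI, shallow members had higher levels of these transcripts, although fewer of them held any: an Ncr1 UMI was in 42.2% and 36.8% of members under 2000 UMIs and in 68.5% and 56.1% of those over 5000. Members under 2000 UMIs had Ptprc at 641 and 721 CPM and a median NK share of 0.588% and 0.470%, whereas those over 5000 UMIs had Ptprc at 233 and 250 CPM and an NK share of 0.293% and 0.189%. Ncr1 went from 314 to 144 CPM and from 362 to 124 CPM between the same classes. Ccl5, an NK chemokine, went from 3353 CPM in the reference cells of the IL-15SA library to 7982 CPM in those of the combination library, and from 587 to 1028 CPM in the members. The source of these transcripts was not tested.

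**Figure D4:**
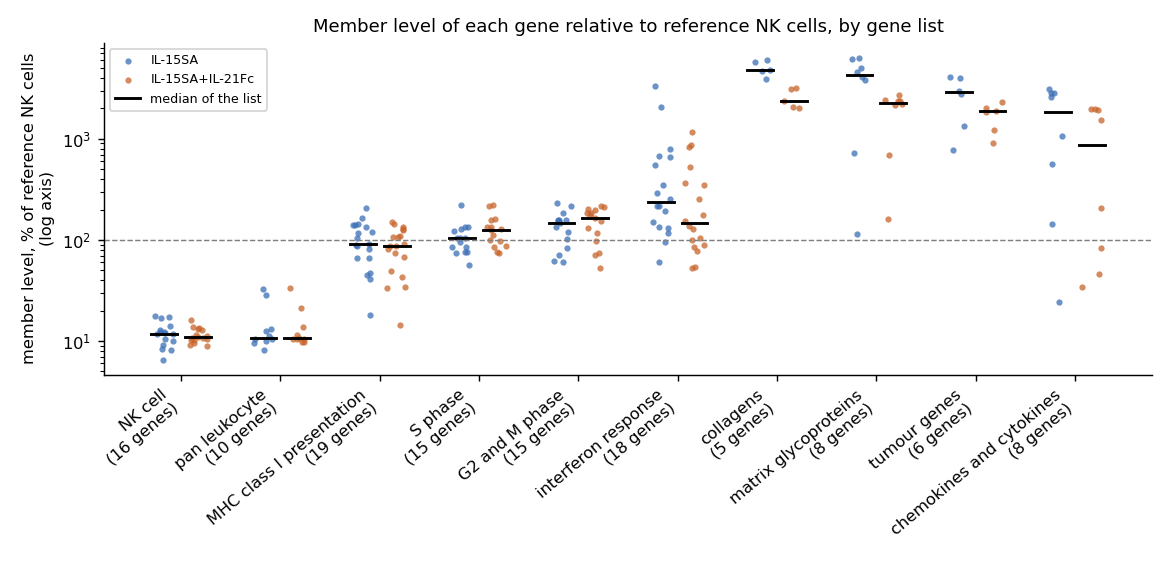
Level of each gene in members as a percent of its level in reference NK cells (log axis), for the genes of 10 lists that passed 50 CPM in both libraries, with the list median as a bar and 1 colour per library. The NK and pan-leukocyte genes lie near 10%, the medians of antigen presentation and cell-cycle genes between 87.7% and 164%, and those of the collagens and matrix glycoproteins between 2282% and 4842%.

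Genes of MHC class I presentation had medians of 90.7% and 87.7% of the reference level, and spread widely around them, from H2-Q7 at 18.2% and 14.4% to Tapbp at 207% and 152%. B2m, the light chain that carries MHC class I to the surface (chr2:122147686-122153083, mm10), was at 4719 CPM (4579 to 4861) and 4446 CPM (4371 to 4522) in members and at 4546 and 5079 CPM in reference cells. Every IL-15SA member and 710 of 712 combination members had a B2m UMI. The ratio to the reference was 1.04 (1.01 to 1.07) and 0.875 (0.860 to 0.891), far above the 10% of the NK transcripts. The labels call the tumours B2m-/-, and a disrupted gene can still be transcribed, so the count does not test the genotype or the cells' origin. Of 19 presentation genes that passed the filter, 4 were at least 2-fold lower (14.5% of all genes were) and none higher, with H2-D1 at 13271 and 13306 CPM against 15150.5 and 18045 CPM.

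Ligands that NK receptors read went in different directions. Of 24 genes found, 9 passed the filter. In members of both libraries 1 was at least 2-fold higher (19.1% of all genes were) and 3 were lower (14.5%). The higher gene was Vcam1, an adhesion ligand of integrins, at 272 and 283.4 CPM against 6.79 and 13.3 CPM. Vcam1 passed the filter only through the members, so nothing is read from these counts. Below the filter, Pvr, the ligand of DNAM-1 and TIGIT, was above the reference, at 46.8 and 33.1 CPM against 4.17 and 5.75 CPM. Nectin2 was above it too, at 30.5 and 13.9 CPM against 0.595 and 0.744 CPM. Cd274, the PD-1 ligand, was at 45.7 and 34.7 CPM, under the 70.9 and 82.5 CPM of the reference cells.

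Cell-cycle genes were mostly within 2-fold of their level in the NK cells. Of 15 S phase genes that passed the filter 1 was 2-fold higher and none lower, and of 15 G2 and M phase genes 2 were higher and none lower. Mki67 was at 104 and 75.4 CPM against 172 and 143 CPM, and Ube2c at 471 and 403 CPM against 216 and 186 CPM. Interferon-response genes were more uneven, at 60.65% to 3308% of the reference level in IL-15SA members and 52.38% to 1164% in combination members. Of 18 that passed the filter, 7 were at least 2-fold higher in both libraries (19.1% of all genes were) and none lower (14.5%). The rule used this contrast, and Gbp2 passed the filter in the IL-15SA library only through the members, so nothing is read from these counts. Ifitm3, an antiviral membrane protein, was at 2565 and 2673 CPM against 387 and 307 CPM, Bst2 (tetherin) at 911 and 798 CPM against 164 and 219 CPM, and the GTPase gene Gbp2 at 359 and 301 CPM against 45.3 and 57.7 CPM.

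Members made up 2.15% (interval 1.85 to 2.48) of the IL-15SA barcodes and 5.73% (5.32 to 6.15) of the combination barcodes, a ratio of 2.67 (2.26 to 3.16). They held 2.97% and 8.56% of all UMIs. The share depends on the sort, on the pooled cells and on how barcodes were called, and the 2 treatments were not replicated. The reference cells moved the same way: Rhox5 was at 16.5 and 32.8 CPM and Col1a2 at 15.2 and 27.3 CPM in them. Barcodes with a stroma share of at least 0.2% and an NK share of 0.8% or more made up 1.71% and 2.84%.

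Between the 2 libraries the members differed in few genes, and Csf2 was farthest apart among those lower in combination members. Of 3408 genes at 50 CPM or more in the members of 1 library, combination members had 16 (0.469%) lower and 6 (0.176%) higher by 2-fold or more, and the median log2 difference over all was 0.00. Rhox5 was level, with a ratio of combination to IL-15SA of 0.951 (0.868 to 1.04). Col1a2 had a ratio of 0.956 (0.883 to 1.04), but it belongs to the rule, so its level was partly set by the choice of cells. Ogn and Omd were higher in the combination members by 1.67 (1.38 to 2.04) and 1.55 (1.196 to 2.03) times. Apod, which went with Ogn and Omd above, was 2.11 times (1.43 to 3.20) higher, at 32.7 and 68.8 CPM. These 3 differences shrank in members with at least 4000 UMIs. The log2 ratios there were 0.24 for Ogn, 0.28 for Omd and 0.40 for Apod, against 0.73, 0.62 and 1.05 in all members.

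Csf2, the gene of the growth factor GM-CSF (chr11:54247271-54249667, mm10, minus strand), is described first. It was at 412 CPM (371 to 455, 378 UMIs) in IL-15SA members and 33.4 CPM (27.2 to 40.6, 101 UMIs) in combination members, 12.3 times lower (9.87 to 15.5) in the latter. A Csf2 UMI was present in 38 of 180 (21.1%) and 55 of 712 (7.72%) members, and in 13.3% (8.73 to 19.2) and 4.07% (2.74 to 5.80) of members thinned to 1000 UMIs. Few cells held much of it: the 5 richest IL-15SA cells had 63, 39, 37, 37 and 31 of the 378 UMIs. The richest combination cell had 11. Without the richest cell of each library the levels were 347 and 29.9 CPM. NK cells are a known source of GM-CSF: the reference cells were at 72.2 and 72.6 CPM. By CPM, members were thus above the reference in 1 library and below it in the other. By share of thinned cells, 4.97% and 3.76% of reference cells had a Csf2 UMI. On that measure the combination members, at 4.07% (2.74 to 5.80), were within counting error of the reference.

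Of the other cytokine and chemokine genes, Cxcl1, a neutrophil chemokine, was at 646 and 244 CPM, 2.65 times (2.37 to 2.96) lower in the combination members, and without the richest cells at 540.3 and 148 CPM. Thinned, 21.7% (15.9 to 28.4) and 9.55% (7.49 to 11.95) of members had a Cxcl1 UMI. In reference cells Cxcl1 was at 24.97 and 12.2 CPM. Cxcl10, a chemokine for T and NK cells, was at 201 and 76.7 CPM in members, whereas the reference cells went from 18.9 to 36.8 CPM, the opposite direction. Il11, an IL-6-family cytokine, was at 53.4 and 17.5 CPM on 49 and 53 UMIs, and its thinned share of cells (2.22% and 1.69%) overlapped. Ccl2, the main monocyte chemokine, was 1.79 times (1.71 to 1.89) lower, at 2568 and 1432 CPM, short of 2-fold. Of 10 chemokine and cytokine genes tested, 8 were lower in combination members, where 1715 of all 3408 genes were, and 4 of them passed 2-fold, where 0.469% of all did. Csf2 and Il11 passed the filter only through the IL-15SA members, where they were high, so nothing is read from these counts. At a stroma limit of 0.4%, Cxcl1 and Cxcl10 no longer passed 2-fold (log2 ratios of -0.82 and -0.62).

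Among feedback and stress genes, Nfkbia, the inhibitor that NF-kB induces against itself, was at 1127 and 513 CPM in members, 2.20 times (2.03 to 2.38) lower in combination members, or -0.79 on the log2 scale at a stroma limit of 0.4%. The reference cells had 829.8 and 1142 CPM, so they differed in the other direction. Errfi1, a feedback inhibitor of the EGF receptor, was at 499 and 219 CPM, Plk2, a stress-induced kinase, at 744 and 370.4 CPM, and Ptgs2, the inducible prostaglandin synthase, at 374 and 187 CPM. Il1rl1, the IL-33 receptor, was at 252 and 106 CPM and thinned members held it in 19.4% (13.9 to 26.0) and 8.85% (6.87 to 11.2) of cells. Nppb was at 228 and 83.3 CPM. Of 13 NF-kB and stress genes tested, 11 were lower in combination members, where 1715 of all 3408 genes were. Of these 1, Nfkbia, passed 2-fold, where 0.469% of all did. The list median was -0.51 against 0.00 over all genes. The list was chosen with earlier results of these data known, so nothing is read from these counts.

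Among the 6 genes higher in the combination members, Hes1 stayed past 2-fold under every alternative tried. Saa3 and Cxcl5 came from the 1 cell described above. Hes1, a Notch target, went from 10.9 CPM (10 UMIs) to 56.6 CPM (171 UMIs, in 99 of 712 cells), 5.19 times (2.76 to 11.0) higher, and was also higher in the reference cells (13.2 and 22.9 CPM). Rgs2, at 27.2 and 56.9 CPM in members, was far higher in reference cells (296 and 422 CPM) and moved the same way there. Rpl29 was at 23.9 and 55.6 CPM, and Apod is given above.

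**Figure D5:**
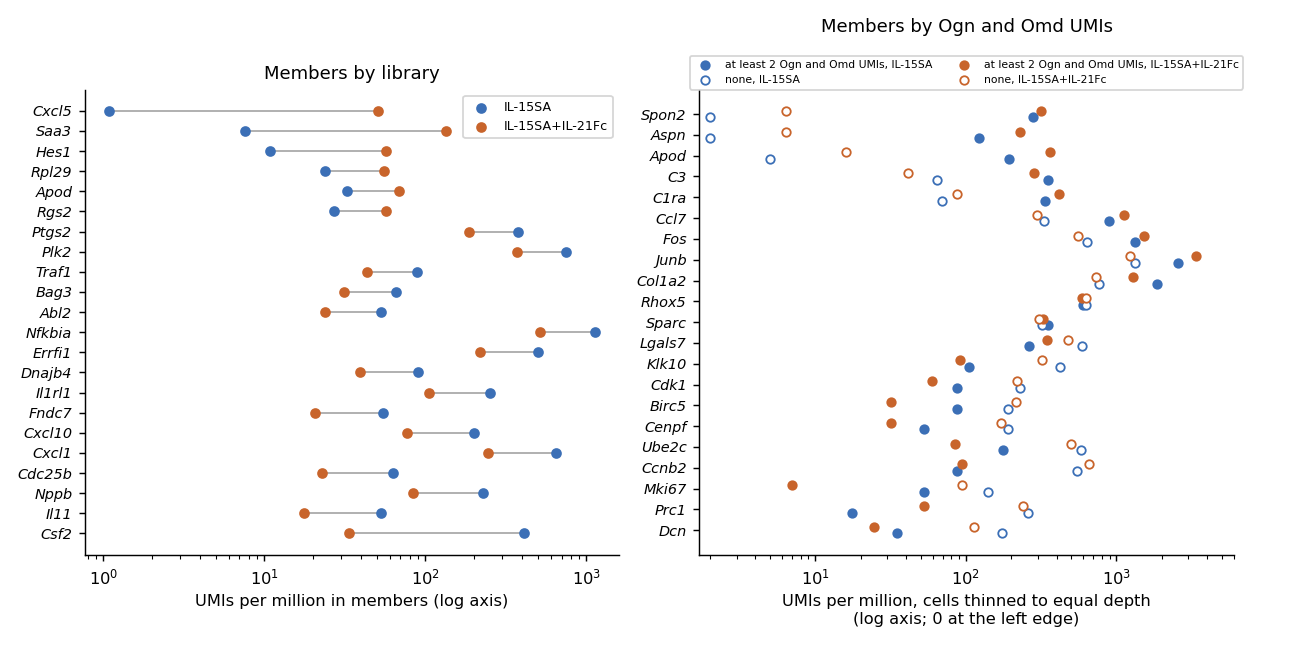
Left, the 22 genes at least 2-fold apart between the members of the 2 libraries, in CPM (log axis), 1 colour per library: Csf2 falls from 412 to 33.4, and Saa3 and Cxcl5 on the other side rest on 1 cell. Right, 21 genes in members thinned to 3000 UMIs with at least 2 Ogn and Omd UMIs (filled) or none (open), in CPM (log axis, 0 drawn at the left edge), by library: Rhox5 is level while mitotic genes lie to the left in the filled points.

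Several of the lower genes are known NF-kB targets, and their upstream sequences are shown for the 2 that matched both forms of its site searched. Of the 16 lower genes 15 have a promoter entry in RefSeq's table for GRCm38.p6, and the 250 bases before each start were searched on both strands with 6 patterns chosen after the values were seen. A kappaB form of GGAA, any base and TTCCC was found in 3 of 15 (Cxcl1, Cxcl10 and Nfkbia) and in 0.333% of all 27025 genes with an entry. The form of GGGA, any base and TTTCC, which can overlap it, was in 2 of 15 (Cxcl1 and Nfkbia) and in 0.414%. Looser forms of GGG, any 2 bases and TTTCC or TTCC were in 2 and 1 of 15 against 1.65% and 5.61%. TGANTCA, the AP-1 site, was in 3 of 15 against 7.82%, and TTC, any 3 bases and GAA in none against 8.13%. The windows run 5′ to 3′ along the gene's strand, with bases that match either NF-kB form in capitals. A match describes letters and is no evidence of binding.
Cxcl1, chr5:90891139-90891218, plus strand: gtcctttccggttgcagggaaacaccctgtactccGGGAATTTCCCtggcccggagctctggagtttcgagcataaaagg
Nfkbia, chr12:55492648-55492727, minus strand: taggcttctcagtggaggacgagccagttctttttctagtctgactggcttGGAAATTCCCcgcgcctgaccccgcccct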

How the data were processed

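The authors deposited UMI counts, 1 matrix of genes by barcodes without normalization, for 1 IL-15SA and 1 combination library made with a microwell kit, per the labels' protocols. Cutadapt, featureCounts, Seurat version 4, Scanpy and mm10 stand in the submitters' processing notes without roles, while aligner, annotation and cell calling are not given there. Of 53715 gene IDs, 53620 matched GENCODE M21. Members and gene lists (34) were chosen with earlier results of these data known.

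Counts were summed over the cells of a class and library and given as counts per 1000000 (CPM). Compared genes reached 50 CPM, and called genes differed 2-fold on log2(CPM + 1), a scale that understates the change of low genes. Poisson intervals were used for levels, conditional binomial for ratios and Clopper-Pearson for shares. UMIs of 1 cell are not independent, so intervals are too narrow. No test was run. Named genes were the 20 with the highest ratio to the reference in both libraries, the 8 highest and 8 lowest between libraries and between Rhox5 and Dcn, Ogn or Omd classes (mitochondrial, ribosomal protein, haemoglobin and unnamed genes left out), the 4 highest of each list, and fixed markers. Genes past 2-fold between libraries and those of the Ogn and Omd comparison were named after their values were seen. Scrublet's own threshold marked 3 and 0 barcodes, too few to use, so doublets stayed in and the top 5% of scores was left out as an alternative. The code was tested on simulated data. Results for some genes are not reported here. Python 3.11.15, scipy 1.17.1, scanpy 1.11.5 and edgeR 4.0.16 (TMM only) were used.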

Additional observations from a re-analysis of the deposited data

Results flagged for a closer look

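By CPM, Csf2 was above the reference cells in IL-15SA members and below them in combination members, with log2 ratios of 2.50 and -1.10. By share of thinned cells with a Csf2 UMI, combination members (4.07%) were not below the reference cells (3.76%). The difference between the log2 ratios of the 2 libraries was not tested, since each treatment is 1 library. In barcodes with both signatures Csf2 was at 303 and 71.7 CPM.

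Barcodes with both a stroma share of at least 0.2% and an NK share of 0.8% or more lie outside the comparisons above and made up 1.71% (1.44 to 2.01) and 2.84% (2.55 to 3.15) of the libraries. They had medians of 1717 and 1438 UMIs, below members and reference cells. Col1a2 was at 915 and 815 CPM in them, Rhox5 at 346 and 306 CPM and Ptprc at 1561 and 1978 CPM, between members and reference cells for the last 2 genes.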

How the results depend on the processing

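No paired analysis was possible because each treatment is 1 library without a replicate number. The member share was 1.16% and 3.54% (IL-15SA and combination library) with a stroma limit of 0.4%, 1.06% and 3.61% with an NK limit of 0.4%, and 3.11% and 7.35% with an NK limit of 1.6%. The combination share was 6.47% with a stroma limit of 0.1% and 5.32% with at least 5 UMIs of the stroma genes. The ratio of the shares moved from 2.67 to 3.40 with the NK limit of 0.4%.

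Between libraries, 35 genes were higher and 53 lower at a filter of 20 CPM, against 6 and 16 at 50 CPM. A stroma limit of 0.4% gave 17 and 30. Lower genes numbered 31 with every cell weighted equally, 31 with cells matched on UMIs and 33 in members with at least 4000 UMIs, the last an alternative chosen after seeing the data. Saa3 reversed, with a log2 ratio of -3.11 in cells matched on UMIs and -0.38 without the cell richest in Dcn in each library, also chosen after seeing the data. The other 21 of the 22 genes kept their sign in all 8 settings, and 4 stayed past 2-fold in each. Csf2 ranged from -3.96 to -2.89, Cxcl1 from -2.36 to -0.82 and Nfkbia from -1.36 to -0.79.

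Against the reference, the filter of 20 CPM gave 1259 higher and 820 lower genes, against 682 and 516.

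The classes by Rhox5 and fibroblast genes moved with depth. Thinned to 1000 UMIs, Rhox5 only fell to 34.4% and 34.0%, both to 9.44% and 9.83%, and neither rose to 48.3% and 42.0%, while Dcn, Ogn or Omd only rose to 14.2% in the combination library. With 2 UMIs needed, both was 17.2% and 17.7%, neither 33.3% and 36.8%, and Rhox5 only 35.1% in the combination library. With a stroma limit of 0.4%, Rhox5 only was 34.0% and 30.7%, and both was 44.3% and 43.6%. The cause of these shifts was not tested. Depth limits single-cell presence: a cell thinned to 1000 UMIs holds on average 1 UMI of a gene at 1000 CPM.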
